A study of Mus musculus with 6 samples.

Results

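The genes described here are those of fatty acid oxidation in mitochondria and peroxisomes, together with the peroxins that build peroxisomes. They were found by symbol on the array annotation: the Acad, Acox, Acot, Acsl, Cpt1, Cpt2, Crat, Hadh, Ech, Eci, Etf, Decr and Pex families, updated to current names. The symbols matched 55 probes of 52 genes, and 45 probes of 44 genes had a value on at least 4 of the 6 arrays, out of 11629 probes tested in the series. A further 5 probes matched by spelling but belong to other processes and were left out: Etf1, Pex5l, Echdc1, Etfrf1 and Etfbkmt. Each array compared amplified lung RNA of 1 C57 mouse, sensitized and challenged with ovalbumin (OVA), with a single pool of amplified lung RNA from control C57 mice. Neither the number of control mice in the pool nor the age or sex of the animals is given in the sources used here. The labels number 6 OVA mice. The pool is the same control sample on every array, so the tests leave out the spread between control mice.

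A fatty acid is first activated to an acyl-CoA, then carried into the mitochondrion as a carnitine ester, where it is shortened in repeated rounds of dehydrogenation, hydration, a second dehydrogenation and cleavage. Electrons from the first step leave through the electron transfer flavoprotein. Peroxisomes begin the shortening of very long and branched chains with acyl-CoA oxidases, and peroxins import their enzymes and divide the organelle. In the lung, alveolar type 2 cells and club cells are known to be rich in peroxisomes, while heart muscle and brown fat are the classic users of the mitochondrial pathway. Many of these genes are known targets of the nuclear receptor PPARα.

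All values are deposited log ratios, read as log2 and centred on the median of each array. The direction of the ratio is not given, and its sign is kept as deposited. For orientation, genes known to respond to ovalbumin lay on the negative side (Clca1, a regulator of mucus, at -3.06 ± 1.95, and the anion exchanger Slc26a4 at -2.93 ± 1.32; SD, n = 6), and the club cell secretoglobin Scgb1a1 on the positive side at 1.38 ± 0.37. Fold sizes assume base 2 and are given without a direction. Array 3 stood apart: the SD of its ratios over all probes was 0.21 against 0.32 to 0.47 on the others, and its mean ratio of the ovalbumin-response genes with a value was 0.11 (14 genes), against -2.70 to -1.42 on the others (15 or 16 genes). In that list 10 of 16 genes were called (62.5%, beside 24.4% of all probes), all negative. The count was 6, 4, 4 and 5 without mouse 1, 2, 4 or 6. It was 8 without mouse 5 and 12 without mouse 3. A gene is called here when limma gave a Benjamini-Hochberg adjusted p under 0.05 over all 11629 probes. RNA came from whole lung, in which fewer cells of a type and less RNA per cell cannot be told apart.

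Changes in this pathway were small. Of the 45 probes 13 were called (28.9%), which stand for 12 genes, against 24.4% of all probes tested, so the share of called members lay near the background. The 9 positive calls (against 12.0% of all probes) were Ech1, Acot13, Acad10, Eci1, Echdc3, Crat, Pex19, Decr1 and Pex11g. The 4 negative calls (against 12.3%) were both probes of Acot7, Pex11a and Acsl4. None of the called members was 1.5-fold apart from the pool, whereas 4.88% of all probes were called and at least 1.5-fold apart; the largest difference, that of Ech1, was 1.49-fold. Mean ratios were positive for 32 of 45 probes (71.1%) and for 49.1% of all probes tested. The median of the 45 means was 0.07, and that of all probes was -0.003. At an unadjusted p under 0.05 in limma the members numbered 19, 14 positive and 5 negative.

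Of the 13 calls 10 were lost when at least 1 of the mice was left out. Leaving out mouse 2 left 3 of the 13 calls, leaving out mouse 4 left 5, mouse 6 left 7, mouse 1 left 8 and mouse 5 left 9. Without mouse 3, whose array stood apart, 10 of the 13 were kept and 11 probes were called in all. The count over all probes also dropped, from 2832 to 1374 without mouse 2, to 1332 without mouse 4 and to 1719 without mouse 6. Eci1, Echdc3 and Pex19 were called whichever mouse was left out.

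**Figure D1:**
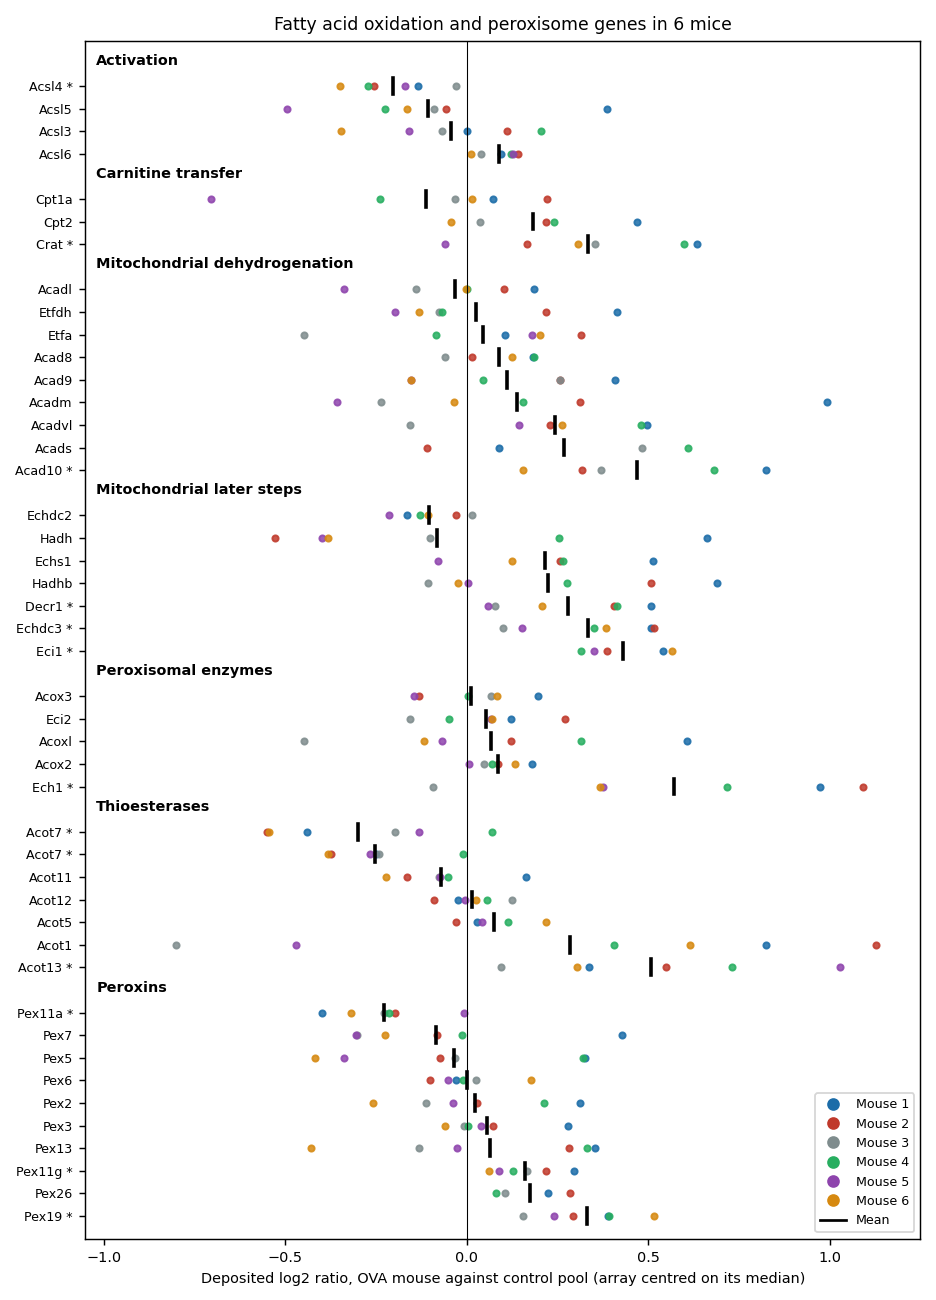
Deposited log2 ratio (x axis) of each of the 45 probes (y axis, grouped by role) in the 6 OVA mice; points are single mice, the black bar is the mean, and an asterisk marks an adjusted p under 0.05 in limma. Ech1, Acot13, Acad10 and Eci1 lie farthest to the positive side, with means of 0.43 to 0.57, and the first Acot7 probe lies farthest to the negative side, with a mean of -0.30.

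The promoters of 4 called genes are printed first, since 2 of them, Eci1 and Echdc3, kept their call in every leave-out and the other 2, the paralogs Pex11g and Pex11a, were called with opposite signs. Promoter windows of RefSeq (GRCm38.p6) were found for 38 of the 44 genes and cover 250 bases before to 50 after the start. The letters AGGTCA, the hexamer read by PPAR and other nuclear receptors, were searched on both strands. Each line gives the bases from 200 to 81 before the start, 5′ to 3′ in the direction of the gene, with capitals on a match of the hexamer or its reverse complement. The Eci1 stretch is chr17:24426483-24426602 on the plus strand, and those of Echdc3 (chr2:6213075-6213194), Pex11g (chr8:3467729-3467848) and Pex11a (chr7:79743212-79743331) are on the minus strand.
Eci1: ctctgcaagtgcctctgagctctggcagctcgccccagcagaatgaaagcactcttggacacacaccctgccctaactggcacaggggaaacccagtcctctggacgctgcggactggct
Echdc3: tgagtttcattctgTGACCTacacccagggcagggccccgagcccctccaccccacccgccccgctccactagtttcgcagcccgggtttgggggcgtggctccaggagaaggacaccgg
Pex11g: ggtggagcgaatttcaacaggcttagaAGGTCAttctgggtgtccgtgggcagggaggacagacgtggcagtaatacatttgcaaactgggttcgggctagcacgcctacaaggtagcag
Pex11a: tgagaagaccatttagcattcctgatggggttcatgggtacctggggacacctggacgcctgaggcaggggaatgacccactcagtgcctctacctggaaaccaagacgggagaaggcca

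The hexamer occurred in the windows of 9 of 38 members (23.7%) and of 18.1% of all 27025 genes with a window. It occurred in 2 of the 8 called genes that had one, Echdc3 and Pex11g. The full direct repeat that PPAR binds with its partner RXR, AGGTCANAGGTCA, was in 0 of the 38 members and in 0.0481% of all genes. These are matches of letters within a short window and say nothing about binding.

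Activation was measured with 4 long-chain acyl-CoA synthetases, of which 1 was called (25.0%, beside 24.4% of all probes). Acsl4, which prefers arachidonic acid, had deposited log2 ratios of -0.14, -0.26, -0.03, -0.27, -0.17 and -0.35 in mice 1 to 6. It was negative in every mouse, with the value nearest 0 in mouse 3. Its mean was -0.20 ± 0.11 (SD, n = 6), 1.15-fold apart (limma, adjusted p = 0.0246), and the call was lost without mouse 2, 4, 5 or 6 (adjusted p 0.0528 to 0.0792). The other synthetases were not called. Acsl6, known from brain, was positive in 6 of 6 mice at 0.09 ± 0.05 (adjusted p = 0.103). Since Acsl4 was negative in every mouse, Acsl6 stood above it in each. Acsl5 at -0.11 ± 0.29 and Acsl3 at -0.04 ± 0.20 had mice on both sides of 0.

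Carnitine transfer had 1 call among 3 genes (33.3%, beside 24.4% of all probes). Crat, the acetyltransferase that frees CoA from short acyl groups, was at 0.64, 0.17, 0.35, 0.60, -0.06 and 0.31 in mice 1 to 6. Mouse 5 alone was on the negative side. The mean of 0.33 ± 0.26 was 1.26-fold apart (adjusted p = 0.0384), and the call was lost without mouse 1, 2, 3, 4 or 6 (adjusted p 0.0659 to 0.109). Cpt1a, the liver-type gatekeeper of entry into mitochondria, was at -0.11 ± 0.33 (adjusted p = 0.505), with its lowest value of -0.70 in mouse 5 and its highest of 0.22 in mouse 2. Cpt2, which restores the acyl-CoA inside, was at 0.18 ± 0.20 over 5 mice (adjusted p = 0.135). Cpt1b, the muscle form of the gatekeeper, had no value on any array.

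In the mitochondrial first step, 1 of 9 genes was called (11.1%, beside 24.4% of all probes), Acad10. This acyl-CoA dehydrogenase family member had ratios of 0.83, 0.32, 0.37, 0.68 and 0.15 in mice 1, 2, 3, 4 and 6 and no value in mouse 5. All 5 values were positive, with mouse 1 highest. The mean was 0.47 ± 0.28 (n = 5), 1.38-fold apart (adjusted p = 0.0228), and the call was lost without mouse 2 or 4 (adjusted p 0.0564 and 0.0775). The chain-length enzymes proper were not called. Acadvl, for very long chains, was at 0.50, 0.23, -0.16, 0.48, 0.14 and 0.26 in mice 1 to 6, a mean of 0.24 ± 0.24 (adjusted p = 0.078). Only mouse 3 was negative, and without it Acadvl was called. Acadm, for medium chains, spread from -0.36 in mouse 5 to 0.99 in mouse 1 around a mean of 0.14 ± 0.49 (adjusted p = 0.571). Acads, for short chains, was at 0.27 ± 0.34 in 4 mice (adjusted p = 0.196), and Acadl, for long chains, at -0.03 ± 0.19 (adjusted p = 0.768). Acad8, of valine breakdown, and Acad9, also an assembly factor of complex I, were at 0.09 and 0.11. The electron acceptors Etfa and Etfdh were at 0.05 and 0.03, with mice on both sides.

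The later mitochondrial steps had 3 calls among 7 genes (42.9%, beside 24.4% of all probes), all positive. Eci1, the isomerase that lets unsaturated chains re-enter the cycle, had ratios of 0.54, 0.39, 0.32, 0.35 and 0.57 in mice 1, 2, 4, 5 and 6 and no value in mouse 3. The 5 values lay close together. The mean was 0.43 ± 0.11 (n = 5), 1.35-fold apart (adjusted p = 0.00552), the lowest adjusted p of the members, and it was at most 0.0231 when a mouse was left out.

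Echdc3, an enoyl-CoA hydratase-like mitochondrial protein, was at 0.51, 0.52, 0.10, 0.35, 0.15 and 0.38 in mice 1 to 6. All were positive, with mice 3 and 5 lowest. The mean was 0.34 ± 0.18, 1.26-fold apart (adjusted p = 0.0131), and the adjusted p was at most 0.0463 when a mouse was left out. Its relative Echdc2 lay below it in 6 of 6 mice and was at -0.10 ± 0.09 (adjusted p = 0.107). Decr1, the reductase for polyunsaturated chains, was at 0.51, 0.41, 0.08, 0.42, 0.06 and 0.21 in mice 1 to 6. It too was positive in every mouse and lowest in mice 3 and 5. The mean was 0.28 ± 0.19, 1.21-fold apart (adjusted p = 0.028), and the call was lost without mouse 1, 2, 4 or 6 (adjusted p 0.058 to 0.0885).

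Echs1, Hadh and Hadhb, which hydrate, oxidize and cleave, were not called. Hadhb, the thiolase subunit of the trifunctional protein, was at 0.23 ± 0.32 (adjusted p = 0.18) and Echs1, the short-chain hydratase, at 0.22 ± 0.22 in 5 mice (adjusted p = 0.109). Hadh, the short-chain hydroxyacyl-CoA dehydrogenase, spread from -0.53 in mouse 2 to 0.66 in mouse 1 around -0.08. Values of mouse 1 were the highest of all measured mice for Hadh and Hadhb, as they were for Acadm.

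Peroxisomal enzymes had 1 call among 5 genes, a share slightly below the 24.4% of all probes. Ech1, an isomerase of dienoyl-CoA found in both organelles, had ratios of 0.97, 1.09, -0.09, 0.72, 0.38 and 0.37 in mice 1 to 6. Mice 1, 2 and 4 were high, mice 5 and 6 lower, and mouse 3 was slightly negative. The mean was 0.57 ± 0.44, the largest of the members (adjusted p = 0.0321). The call was lost without mouse 1, 2, 4, 5 or 6 (adjusted p 0.0586 to 0.093), and without mouse 3 the mean was 0.71. Eci2, an isomerase also found in both organelles, was at 0.05 ± 0.15 and lay below Ech1 in 6 of 6 mice. The oxidases showed little: Acox2, which acts on branched chains and bile acid precursors, was at 0.09 ± 0.06 and positive in 6 of 6 mice (adjusted p = 0.124), Acox3 was at 0.01 ± 0.13, and Acoxl was at 0.07 ± 0.37.

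Thioesterases, which release the fatty acid from CoA, had 3 called probes of 2 genes among 7 probes of 6 genes (42.9% of probes, beside 24.4% of all). Acot13, a thioesterase associated with mitochondria, was at 0.34, 0.55, 0.10, 0.73, 1.03 and 0.31 in mice 1 to 6. All were positive, with mouse 5 highest and mouse 3 lowest. The mean was 0.51 ± 0.34, 1.42-fold apart (adjusted p = 0.0209), and the call was lost without mouse 2 or 4 (adjusted p 0.0652 and 0.0682).

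Acot7, a cytosolic thioesterase abundant in brain and known from macrophages, was measured with 2 probes. The first had ratios of -0.44, -0.55, -0.20, 0.07, -0.13 and -0.54 in mice 1 to 6 and the second of -0.25, -0.37, -0.24, -0.01, -0.27 and -0.38. Both probes were nearest to 0, or above it, in mouse 4 and lowest in mice 2 and 6. The means were -0.30 ± 0.25 (1.23-fold, adjusted p = 0.0486) and -0.25 ± 0.13 (1.19-fold, adjusted p = 0.0169). The call of the first was lost without mouse 1, 2, 3, 5 or 6 (adjusted p 0.0648 to 0.133), and that of the second without mouse 2 (adjusted p = 0.0582). The first was also not called without centring, with a minimum of 3 arrays, with array weights or with robust eBayes. Acot13 lay above either Acot7 probe in 6 of 6 mice, a description of genes already called with opposite signs.

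Acot1, a cytosolic thioesterase known as a PPARα target, had the widest spread of the members. Its ratios were 0.83, 1.13, -0.80, 0.41, -0.47 and 0.62 in mice 1 to 6. Mice 3 and 5 were negative and the other 4 positive, and the mean of 0.28 ± 0.76 was not called (adjusted p = 0.445). Acot1 has near-identical relatives in its gene cluster, and a probe could read several of them. Acot5 itself was at 0.08 ± 0.10 in 5 mice and Acot11, known from brown fat, at -0.07 ± 0.13. Acot12, a cytosolic acetyl-CoA hydrolase, was at 0.02 ± 0.07.

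Peroxins had 3 calls among 10 genes, in both directions, a share near the 24.4% of all probes. Pex19, the carrier of peroxisomal membrane proteins, was at 0.39, 0.29, 0.16, 0.39, 0.24 and 0.52 in mice 1 to 6. It was positive in every mouse, lowest in mouse 3. The mean was 0.33 ± 0.13, 1.26-fold apart (adjusted p = 0.00743), and the adjusted p was at most 0.031 when a mouse was left out.

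The Pex11 proteins elongate the peroxisome before it divides. Pex11a, the form that responds to PPARα ligands, was at -0.40, -0.20, -0.23, -0.21, -0.01 and -0.32 in mice 1 to 6, and Pex11g at 0.30, 0.22, 0.17, 0.13, 0.09 and 0.06. Pex11a was negative and Pex11g positive in all 6 mice, so their values did not overlap, and Pex11g was higher by 0.39 ± 0.19 within arrays. This pair was picked for its opposite signs, so the difference is a description. The other pairs compared within mice each set a called member against one of opposite sign or not called. Their orders are descriptions too. Pex11a had a mean of -0.23 ± 0.13 (1.17-fold, adjusted p = 0.0233), lost without mouse 2, 4 or 6 (adjusted p 0.0639 to 0.0661). Pex11g had a mean of 0.16 ± 0.09 (1.12-fold, adjusted p = 0.032), lost without mouse 1, 2, 3, 4 or 5 (adjusted p 0.054 to 0.0975).

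Of the import machinery, Pex26, the membrane anchor of the export complex, was at 0.17 ± 0.10 in 4 mice (adjusted p = 0.0782). Pex7, the receptor for one class of import signal, was at -0.08 ± 0.28 and Pex13, of the docking complex, at 0.06 ± 0.32. Pex2, Pex3, Pex5 and Pex6 had means between -0.04 and 0.06, and none of them was called.

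Members with a value on fewer than 4 arrays were not tested. Acot8 and Etfb had 3 values each, Decr2 and a second Pex11g probe had 1, and Pex14, Acadsb, Eci3, Acot6 and a second Acot11 probe had none. Cpt1b, given above, completes these 10 probes.

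The level of these genes varied by mouse. The median ratio of the 45 probes was 0.31 in mouse 1, 0.14 in mouse 2, -0.05 in mouse 3, 0.13 in mouse 4, -0.06 in mouse 5 and 0.01 in mouse 6. The centring holds the median of all probes near 0, and it was within 0.003 of 0 in each. Of the measured probes, 38 of 45 were positive in mouse 1 and 32 of 45 in mouse 4, but 15 of 40 in mouse 5 and 17 of 42 in mouse 3. By role, the median of the means was highest for the later mitochondrial steps at 0.23 and carnitine transfer at 0.18. It was 0.11 for mitochondrial dehydrogenation, 0.07 for peroxisomal enzymes, 0.04 for peroxins, 0.02 for thioesterases and -0.07 for activation. The later mitochondrial steps had the highest median in mice 1, 2, 4 and 6, with 0.51, 0.39, 0.28 and 0.13.

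**Figure D2:**
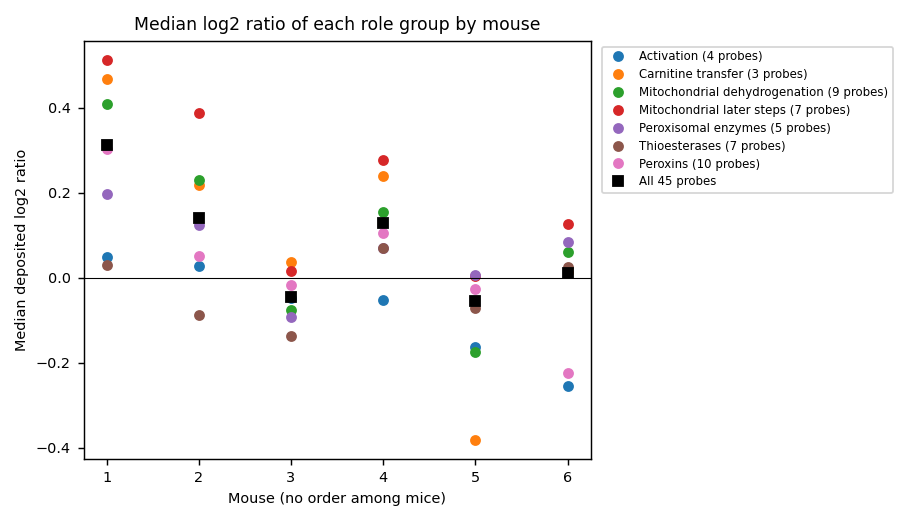
Median deposited log2 ratio (y axis) of the probes of each role in each mouse (x axis), with all 45 probes as black squares. The black squares range from -0.06 in mouse 5 to 0.31 in mouse 1.

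Marker genes of other cell types rich in these enzymes had ratios away from 0 on the same arrays. In the adipocyte list, 8 of 12 genes were called (66.7%, beside 24.4% of all probes), all positive. Its mean ratio ran from 0.33 in mouse 3 to 1.45 in mouse 1. The list was led by the hormone Adipoq at 2.30 ± 1.30 and by Cidea at 2.25 ± 0.69, while Dio2 was at 0.02 and Lep at 0.12. In the heart muscle list, 12 of 21 genes were called (57.1%), all positive, and the mean ran from 0.12 in mouse 3 to 1.24 in mouse 1. Myl4 was at 1.60 ± 1.00 (not called without mouse 2 or 4, adjusted p 0.0551 and 0.0556) and Nppb at 1.45 ± 0.28. Cox7a1, called at 1.27 ± 0.55, is in both the heart muscle and the adipocyte list. Club cell genes had 13 calls among 17 (76.5%), all positive, with means from 0.20 in mouse 3 to 1.51 in mouse 1. All 3 lists were highest in mouse 1, as was the median of the 45 probes. They were lowest in mouse 3, while that median was below 0 in mice 3 and 5 and lowest in mouse 5. Ratios over all probes also spread most on array 1 (SD 0.47) and least on array 3 (SD 0.21). The order of mice in these lists thus cannot be told apart from the spread of the arrays. The part of these cell types in the ratios of the fatty acid oxidation genes was not tested.

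Alveolar type 2 genes had 3 positive and 4 negative calls among 12, from -0.23 in mouse 5 to 0.38 in mouse 1. Macrophage genes had 7 calls among 13, all negative, from -1.32 in mouse 2 to 0.11 in mouse 3. Skeletal muscle genes had 3 positive and 2 negative calls among 10, with means from -0.20 to 0.12. Liver genes had no call among 8 in limma and 2 at an unadjusted p under 0.05. Counts in the heart muscle, club cell, alveolar type 2, macrophage and skeletal muscle lists were lower when some mice were left out: without mouse 4 they were 4, 7, 4, 2 and 3, and without mouse 2 they were 5, 7, 3, 2 and 3. Macrophage calls were also 2 without mouse 1 or 6 and 3 without mouse 5, heart muscle calls 5 and skeletal muscle calls 3 without mouse 6, and liver calls 4 without mouse 3.

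**Figure D3:**
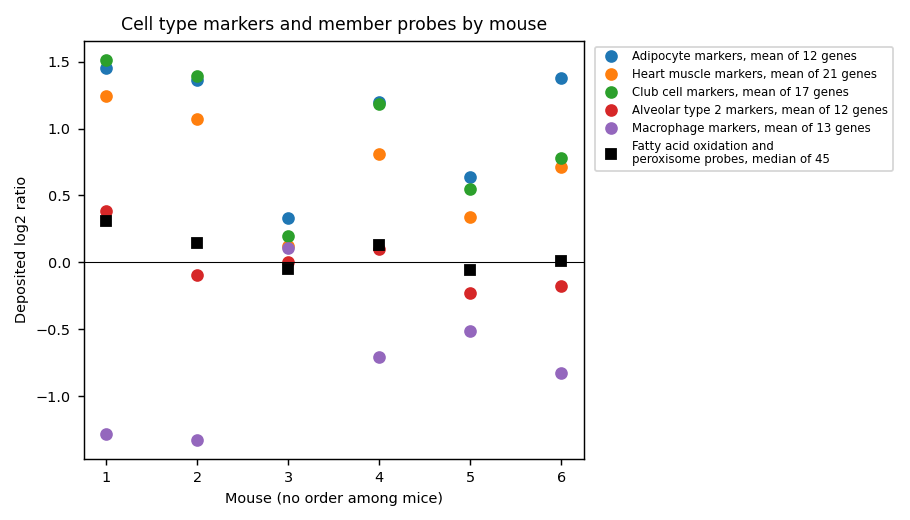
Mean deposited log2 ratio (y axis) of 5 cell type marker lists in each mouse (x axis), with the median of the 45 fatty acid oxidation and peroxisome probes as black squares. Adipocyte, heart muscle and club cell markers sit above the black squares in every mouse, at up to 1.51 in mouse 1, and lowest in mouse 3.

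The other genes of the pathway were read from 7 lists. Uptake and storage had 6 calls among 18 genes (33.3%), all positive, beside 24.4% of all probes. They included Fabp3, a fatty acid binding protein that is also a heart marker, at 1.26 ± 0.79 in 5 mice (adjusted p = 0.023), and Slc27a1, a fatty acid transporter, at 0.95 ± 0.39 (1.93-fold, adjusted p = 0.00552). The hormone-sensitive lipase Lipe, also in the adipocyte list, was at 0.61 ± 0.34 (adjusted p = 0.0121) and Gpihbp1, the endothelial anchor of lipoprotein lipase, at 0.57 ± 0.46 (adjusted p = 0.0367). Fabp3 was not called without mouse 1, 4 or 6 (adjusted p 0.052 to 0.0769), nor Gpihbp1 without mouse 1, 2, 4, 5 or 6 (adjusted p 0.0731 to 0.102), and the list had 3 calls without mouse 4. On the array list the Fabp3 probe sits 6, 18 or 24 numbers away from another probe with a larger positive mean of 1.28, and 0 of the 45 members sit so beside a probe of their own sign with a larger mean of at least 1 in size.

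Of 16 transcriptional regulators 6 were called (37.5%), 5 of them positive. Esrra, a nuclear receptor of mitochondrial genes, was at 0.13, 0.38, 0.66, 0.82, 0.80 and 0.70 in mice 1 to 6, with mouse 1 lowest. Its mean was 0.58 ± 0.27 (1.5-fold, adjusted p = 0.00827). Lpin1, a phosphatase that coactivates PPARα, was at 0.71 ± 0.51 (adjusted p = 0.026), lost without mouse 1, 2, 4, 5 or 6 (adjusted p 0.0529 to 0.0814). The coactivator Ncoa1 was at 0.44 ± 0.16 (adjusted p = 0.00552) and Creb1, which activates Ppargc1a in fasting liver, at -0.40 ± 0.18 (adjusted p = 0.00902).

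The coactivator Ppargc1a itself, also in the adipocyte list, at 0.25 ± 0.07, was positive in 6 of 6 mice and called (adjusted p = 0.00678). The PPAR receptors were not called: Ppara was at 0.02 ± 0.08 (adjusted p = 0.728), Ppard at -0.09 ± 0.20 (adjusted p = 0.401) and Pparg at 0.23 ± 0.32 (adjusted p = 0.163).

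The list of thiolases, multifunctional enzymes, further oxidation enzymes and acyl-CoA binding proteins had 4 calls among 17 genes (23.5%), all positive. Its thiolases Acaa1a, Acaa2 and Scp2 were not called, at 0.12, 0.24 and -0.52. Its multifunctional enzymes Ehhadh and Hsd17b4 were not called either, at -0.015 and, in 4 mice, 0.14. Adjusted p of these uncalled genes in limma ran from 0.0694 (Scp2) to 0.796 (Ehhadh). Dbi, which binds acyl-CoA, was at 0.39 ± 0.20 (adjusted p = 0.0117) and Acbd4, a protein of the same domain on peroxisomes, at 0.38 ± 0.21 (adjusted p = 0.0137). Hacl1, of phytanic acid breakdown, was at 0.33 ± 0.27 (adjusted p = 0.0426) and the racemase Amacr at 0.25 ± 0.14 in 5 mice (adjusted p = 0.0325). Acbd4 was lost without mouse 4 (adjusted p = 0.0504), Hacl1 without mouse 1, 2, 3, 4 or 5 (adjusted p 0.0519 to 0.117) and Amacr without mouse 2, 4, 5 or 6 (adjusted p 0.0525 to 0.105). The list had 2 calls without mouse 2 or 5 and 1 without mouse 4.

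Other peroxisomal proteins had 2 positive calls and 1 negative call among 17 (17.6%). Far1, the reductase that makes fatty alcohols for ether lipids, was at -0.44, -0.83, -0.59, -0.80, -1.09 and -1.21 in mice 1 to 6. It was negative in every mouse, mouse 3 included, and its mean of -0.83 ± 0.29 was 1.77-fold apart (adjusted p = 0.00424), larger than that of any of the 45 probes. Fis1, of organelle division, was at 0.39 ± 0.17 (adjusted p = 0.00876). Nudt7, a peroxisomal hydrolase of CoA, was at 0.31 ± 0.20 (adjusted p = 0.0234), lost without mouse 1, 2 or 4 (adjusted p 0.0508 to 0.0759).

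Carnitine supply and its control had 1 call among 7 genes (14.3%), Mlycd, which removes the Cpt1 inhibitor malonyl-CoA, at 0.31 ± 0.13 (adjusted p = 0.00869) and positive in 6 of 6 mice. Ketone body and propionate genes had 2 calls among 6 (33.3%), Pccb at 0.39 ± 0.15 (adjusted p = 0.00689) and Mmut at 0.23 ± 0.15 (adjusted p = 0.0295), both enzymes of propionate breakdown. Mmut was lost without mouse 2, 4 or 5 (adjusted p 0.079 to 0.0909), and the list then had 1 call.

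The list of the citric acid cycle, which burns the acetyl-CoA produced, had 3 calls among 18 genes (16.7%), all positive. These were Idh3g at 0.27 ± 0.14 (adjusted p = 0.0153), Ogdh at 0.26 ± 0.17 (adjusted p = 0.0263) and Mdh1 at 0.27 ± 0.19 in 5 mice (adjusted p = 0.0449). Mdh1 is the cytosolic malate dehydrogenase, and Mdh2, the mitochondrial form of the cycle, was not among the genes tested. Mdh1 was lost without mouse 2, 3, 4, 5 or 6 (adjusted p 0.0591 to 0.122) and Ogdh without mouse 2 or 4 (adjusted p 0.0751 and 0.081), and the list had 1 call without either of these 2 mice.

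**Figure D4:**
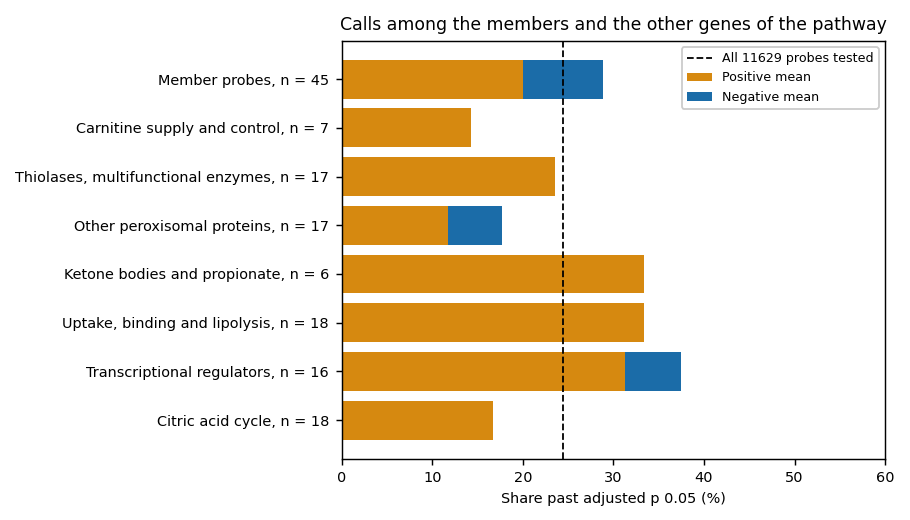
Share of probes or genes past an adjusted p of 0.05 in limma (x axis, %) among the 45 member probes and in 7 lists of other genes of the pathway (y axis), split by the sign of the mean; the dashed line is the share of all 11629 probes tested, 24.4%. The shares run from 14.3% to 37.5%, on both sides of the line.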

How the data were processed

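Two-colour arrays of 6 OVA mice against 1 control pool were used. The authors deposited 1 log ratio per spot, read here as log2 because no source used here gives the base; the scanner, background correction, normalization, dyes and direction are likewise not given in the sources used here. Of 17280 probes, 14722 had 1 symbol, 14445 of them with a current name in RefSeq genes (GRCm38.p6, for names). A set of 170 repeated and 4 plant rows was left out. Each array was centred on its median over probes with values on all arrays, and probes with at least 4 values were fitted with limma 3.58.1 in R 4.3.3 (intercept alone, eBayes, two-sided, Benjamini-Hochberg over 11629 probes, threshold 0.05). The fit was tested on simulated data. The number of arrays limits the precision, and p-values measure the spread between these mice. Members and lists were chosen with earlier results of these data known. Every member past the threshold is named, with up to 3 others per role, and up to 4 genes per list past the threshold; of a gene with several probes, lists use the one with most values. The remaining members were added to account for each. Ppara, Ppard, Pparg, Ppargc1a, Dio2, Lep, Acaa1a, Acaa2, Scp2, Ehhadh and Hsd17b4 lie outside this rule, having been named after their values were seen. Alternatives were other centring and scaling, array minimums, weights, variances, thresholds, genes for probes, and leaving out each mouse. Omitting probes beside a stronger one was added after seeing the data. Plots used matplotlib 3.10.9 (Python 3.11.15).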

Additional observations from a re-analysis of the deposited data

Results flagged for a closer look

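Values of 66 probes and of 15 lists were checked for 1 mouse far from the others. The probes were those of the 45 members and of genes named by rule from the pathway lists. Genes named from the marker lists alone, or after their values were seen, were not checked. Clca1, for example, was at 0.84 in mouse 3 and from -4.20 to -3.11 in the other mice. Of the checked items, 2 list means had such a mouse. In mouse 3 the mean log2 ratio of the liver marker list was -0.356, and that of the ketone body and propionate list was -0.053. Chance alone gives such a mouse in about 1 of 20 groups.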

How the results depend on the processing

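Across 1023 values of these 66 probes under the alternatives, 925 kept their side of the threshold, 902 of them with the same sign and 23 (of 13 genes that were not called) with a changed sign. A further 96 were no longer called, 2 were newly called and 0 of the called means changed sign. The 13 member calls (9 positive, 4 negative) became 4 (3 and 1) with unmoderated variances, against 1444 of all probes (805 and 639); Eci1, Echdc3, Pex19 and the second Acot7 probe were kept. At an adjusted p of 0.01 the members numbered 2, both positive, with 0 negative (5 at an unadjusted p under 0.05 in limma), against 746 of all probes (416 and 330). With a floor of 1.5-fold 0 members remained (0 positive, 0 negative; 19 at an unadjusted p under 0.05) and 568 of all probes (206 and 362). Leaving out each mouse gave 3 to 11 member calls, 3 to 8 positive and 0 to 3 negative (5 negative at an unadjusted p under 0.05 without mouse 2), and 1332 to 3017 of all probes (positive 652 to 1504, negative 663 to 1513). The cause was not tested, apart from fewer mice or a stricter threshold by construction. Other scaling, array weights, robust eBayes, other array minimums, gene averages and omitting probes beside a stronger probe gave 11 to 13 member calls. Of 120 list counts, 29 moved by over 1.5 times, all by leaving out a mouse. No paired analysis was possible because there is 1 group of mice against a single pool. What limits these results is the unknown direction and log base, the single pool, and 6 arrays, with no dye swap known.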
